A study of Rattus norvegicus with 6 samples.

Results

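RNA recovered from sucrose gradients of rat liver was compared with total liver RNA, to describe which RNAs were at a lower or a higher level in the gradient fractions than in the whole tissue. For each locus, the mean of 4 fraction libraries was set against the mean of 2 total RNA libraries, and the direction was required to be the same in each of 2 diets. Of 33022 loci in the deposited table, 32158 carried a gene symbol, and 10201 of these had an estimate that did not fail and averaged 1 FPKM or more over the 6 libraries, FPKM being fragments per kilobase of transcript scaled by the mapped fragments of the library. Of the 10201 loci, 6281 (61.6%) had the same direction in each diet, with 3742 higher and 2539 lower in the fractions.

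All 6 libraries came from the liver of male obesity-prone Sprague Dawley rats that ate a control diet (CD) or a Western diet rich in milk fat and sucrose (WD) for 2 weeks. By the study's methods all had first eaten the CD, and after these weeks they were fasted overnight and briefly refed their own diet. The age of the rats was not given in the sources used here. Each library was a pool of RNA from 3 rats, the same 3 for all libraries of a diet by the sample titles, and each diet had 1 library of total RNA, 1 of the light fraction (RNAs carrying at most 3 ribosomes) and 1 of the heavy fraction (RNAs carrying 4 or more). No difference below therefore has a replicate check, and no p-value is given. The gradients were loaded with the supernatant of a low-speed spin of left lobe liver that had been lysed in detergents with cycloheximide, a drug that holds ribosomes on mRNA. Total RNA was extracted apart from that step with TRIzol, and the fractions with TRIzol LS. A difference between the kinds of RNA and a difference between these preparations cannot be told apart. The methods of the study also describe a separate alignment route for ribosome profiling reads, and whether the fraction libraries took that route was not given in the sources used here.

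Most cytosolic mRNAs in liver are bound by several ribosomes at once, and such polysomes travel deep into a sucrose gradient, whereas free RNA, small ribonucleoprotein particles and mRNAs with few ribosomes stay near its top. Nuclei are largely spun out of a detergent lysate before the gradient, so that RNAs of the nucleus, such as small nucleolar RNAs and transcripts with unspliced introns, belong to total RNA more than to the gradient. Short open reading frames have room for few ribosomes, and mRNAs with a terminal oligopyrimidine tract (TOP mRNAs), which encode ribosomal proteins and translation factors, are known to leave polysomes when nutrient signaling is low. These are general properties of such preparations, and their part in the values below was not tested.

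The libraries were of unequal depth. Whole numbers of fragments could be inferred behind the FPKM values of 7616 loci (74.7%), and on this scale the WD light library was 2.34 times as deep as the CD heavy library, with the others between 1.02 and 1.57. The median locus had 8 fragments in the CD heavy library and 22 in the WD light library, and between 29.6% and 56.2% of these loci had 10 or fewer fragments in a library. The WD light library also stood apart in its values, since loci with a symbol summed to 867734 FPKM there and to between 617369 and 700724 FPKM elsewhere. The 2-fold counts over all loci and the medians of several gene lists are therefore given with and without it. RNA classes are given by library, and bands of locus width only with it. In the text, a change is the log2 ratio of the mean of the fractions over the mean of total RNA after adding 0.1 FPKM to both, a negative change means lower in the fractions, and a level is an FPKM value.

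Across the 10201 loci the median change was 0.11, with quartiles of -0.30 and 0.56. The change was at least 2-fold lower for 443 loci (4.34%) and at least 2-fold higher for 953 loci (9.34%). By a rule on ranks alone, all 4 fraction libraries lay below both total RNA libraries at 777 loci (7.62%) and above both at 760 loci (7.45%). Libraries in no particular order would meet this rule at shares near these, so the counts are not read as depletion or enrichment. Both conditions were met by 299 of the 443 lower loci and by 393 of the 953 higher loci. The lower loci had a median level of 3.06 FPKM, and 207 of them were listed at 0 in at least 1 library, including 14 listed at 0 in all 4 fractions. The higher loci had a median level of 5.89 FPKM, and 69 of them were listed at 0 in both total RNA libraries, so that their fitted change is no measure of size. Just inside and just outside the limit for lower loci were Shank2 and Mapre3, both at -1.0, and the same held for Pald1 and Inpp5e at 1.0.

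The excess of higher over lower loci depended on how the libraries were averaged and scaled. Higher loci made up 68.27% of all loci past 2-fold with the deposited values, 49.54% with all libraries brought to 1 common sum (710 lower and 697 higher), 54.27% after centring on the median (675 and 801), 42.36% with a mean of log2 values (954 and 701) and 80.85% among loci averaging 10 FPKM or more (86 and 363). Rescaling moved the median change of all loci from 0.11 to -0.08. Without the WD light library, 734 loci were lower and 951 were higher, and 726 of the 953 higher loci were among the latter. The numbers in the 2 directions are therefore not compared with each other.

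The CD and the WD share no library, so each diet gives a value that a choice made in the other did not use. In the CD alone, 960 loci (9.41%) were at least 2-fold lower and 1336 (13.1%) at least 2-fold higher, and in the WD alone the numbers were 821 (8.05%) and 1682 (16.5%). Of the 960 loci that were lower in the CD, 22.6% were also at least 2-fold lower in the WD, against 8.05% of all loci. Of the 1336 loci that were higher in the CD, 39.7% were at least 2-fold higher in the WD, against 16.5%. Among loci averaging 10 FPKM or more, the shares were 25.9% against 4.10% for lower loci and 48.6% against 13.8% for higher loci. Loci past 2-fold in 1 diet were thus past it in the other diet more often than loci in general, while most of them were not.

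Across all loci, the changes in the CD and in the WD had a Spearman correlation of 0.30, given as a description over 10201 loci that share the normalization of 6 libraries. The correlation was 0.14 among 2580 loci between 1 and 3 FPKM, 0.41 among 2303 loci between 10 and 30 FPKM and 0.64 among 647 loci of at least 100 FPKM. In that most abundant group, 77.1% of loci had the same direction in each diet. There, 26 were at least 2-fold lower (4.02%, against 4.34% of all loci) and 88 at least 2-fold higher (13.6%, against 9.34%). The least covered library held a median of 1 fragment per locus in the lowest band and 93 in the highest. The plot of the changes in each diet shows the 4069 loci averaging 10 FPKM or more.

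**Figure D1:**
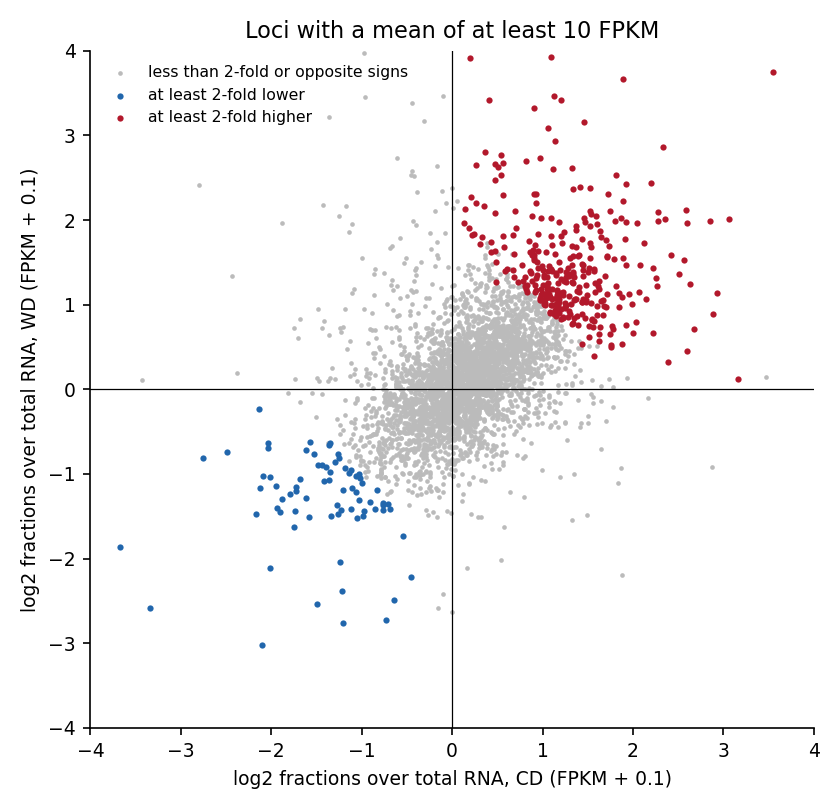
Log2 change of the gradient fractions over total RNA in the CD (horizontal axis) and in the WD (vertical axis) for 4069 loci averaging 10 FPKM or more, with 0.1 FPKM added; 181 loci lie outside the axis limit of 4 either way. The 86 loci at least 2-fold lower (blue) fill the lower left corner and the 363 at least 2-fold higher (red) the upper right, and grey points are loci under 2-fold or of opposite sign.

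Counting error was described for the loci with fragment numbers by an exact 95% interval (Clopper-Pearson, conditional on the sum of both numbers) of the ratio of each fraction over the total RNA of its own diet. All 4 intervals lay below 1 at 50 of 7616 loci (0.657%) and above 1 at 53 loci (0.696%). These intervals cover counting error only, since reads amplified by PCR without molecular identifiers are not independent molecules. Each diet's fractions were also set against their own total RNA separately. Both fractions lay above it in each diet at 1089 loci (10.7%) and below it at 1152 loci (11.3%). Libraries in no particular order would give shares near these as well. The light fraction lay above and the heavy fraction below it in each diet at 1084 loci (10.6%), and the reverse held at 1185 loci (11.6%). The light and the heavy comparisons of a diet share its total RNA library.

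Among the 443 lower loci, the lowest change of those above 0 in every library belonged to LOC100909555, a placeholder symbol at chr1:11963836-11968939 of Rnor_6.0. Its level was 4392 FPKM in CD total RNA and 4380 FPKM in WD total RNA. In the fractions it was 13.6 and 5.85 FPKM (CD light and heavy) and 11.9 and 30.003 FPKM (WD light and heavy), a change of -8.15. The inferred fragments were 4715 and 4498 in total RNA and between 4 and 21 in the fractions, and the highest of the 4 ratios was 0.00685 (0.00424 to 0.0105). The merged locus AABR07029217.1,Stub1, which holds a ubiquitin ligase that works with chaperones, was next, at 2650 FPKM (CD) and 2769 FPKM (WD) in total RNA. Its fractions were 37.3, 22.5, 913 and 29.3 FPKM (CD light, CD heavy, WD light and WD heavy), so that 3 fractions were far below total RNA and the WD light library was intermediate. These loci were singled out after their values were seen, and the merged locus cannot be divided between its genes.

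Small nucleolar RNAs guide the modification of ribosomal RNA in the nucleolus. SNORA74, an H/ACA type whose symbol occurs on more than 1 locus, was at 1709 and 1423 FPKM in total RNA and at 139, 199, 85.2 and 388 FPKM in the fractions, from 54 and 43 fragments against 3 to 8. SNORA48, of the same type and the most abundant of its class, was at 10629 and 6610 FPKM in total RNA, at 670 and 432 FPKM in the light fractions and at 4319 and 6043 FPKM in the heavy fractions. The light libraries were thus far below total RNA, while the WD heavy library came close to it. Of the box C/D type, snoU83B was listed at 789 and 824 FPKM in total RNA and at 0 in all fractions, but each value in total RNA rested on 1 fragment. SNORD66 was at 6976 and 2735 FPKM in total RNA and at 1338 FPKM in the WD heavy library, from 8, 3 and 1 fragments, and at 0 in the other 3 fractions.

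A list of splicing regulators whose pre-mRNAs are known to keep introns was lower in the fractions. Of 26 compared, 7 were at least 2-fold lower (26.9%, against 4.34% of all loci) and 1 was higher, with a median change of -0.39 (CD -0.05, WD -0.69) against 0.11 over all loci, and the median was also negative in the light fraction (-0.52), in the heavy fraction (-0.39) under every scaling tried and without the WD light library (-0.40). Both fractions lay below total RNA in each diet at 11 of the 26 (42.3%, against 11.3% of all loci). All 4 fraction libraries lay below both total RNA libraries at 9 (34.6%, against 7.62% of all loci). Srsf5, which encodes a serine and arginine rich splicing factor, was at 96.5 and 155 FPKM in total RNA and at 57.5, 56.1, 55.9 and 65.8 FPKM in the fractions. The 4 fractions of Srsf5 were close to each other and below both total RNA values, a change of -1.09 with all 4 counting intervals below 1.

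Clk1, a kinase that phosphorylates such factors, was at 23.3 and 28.5 FPKM in total RNA and at 10.6, 10.5, 18.3 and 10.2 FPKM in the fractions, with all 4 intervals below 1. Luc7l3 (-1.63), Luc7l (-1.52) and Snrnp70 (-1.05), components or partners of the U1 particle, and Srsf11 (-1.37) and Prpf38b (-1.05) completed the lower members, at levels of 4.09 to 13.3 FPKM in total RNA. Rsrp1, a further arginine and serine rich protein outside the list, was at 74.5 and 51.8 FPKM in total RNA and between 17.4 and 23.1 FPKM in the fractions. The member that went the other way was Srsf9, at 7.82 and 9.20 FPKM in total RNA and 25.7, 16.9, 17.8 and 8.99 FPKM in the fractions, where the WD heavy value did not exceed WD total RNA. Srrm2 (-0.57), a list member, and Acin1 (-1.34), chosen after its values were seen, are spliceosome-associated and also had all 4 intervals below 1.

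The 15 lowest and 15 highest loci named by rule had, by selection, all 4 fractions on 1 side of both total RNA libraries. An abundant metabolic mRNA named by rule as low was Phyh, which encodes the peroxisomal phytanoyl-CoA hydroxylase of branched fatty acid breakdown. Its level was 570 and 563 FPKM in total RNA, 204 and 285 FPKM in the light fractions and 168 and 179 FPKM in the heavy fractions. The 4 ratios over total RNA were 0.359 (0.309 to 0.415) and 0.295 (0.2495 to 0.347) in the CD and 0.506 (0.458 to 0.560) and 0.318 (0.271 to 0.372) in the WD, light before heavy. Both total RNA libraries thus nearly coincided, and every fraction was well below them. The change was -1.44.

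Os9, named by rule and encoding a lectin that delivers misfolded glycoproteins to degradation at the endoplasmic reticulum, was at 27.1 and 22.5 FPKM in total RNA and at 4.12, 10.5, 5.21 and 13.0 FPKM in the fractions, light below heavy in both diets. Kdelr2, a receptor that returns escaped residents to the endoplasmic reticulum, was at 61.0 and 55.8 FPKM in total RNA and at 39.4, 11.2, 18.9 and 21.1 FPKM in the fractions. Rrbp1, a ribosome-binding protein of the same membrane, had a change of -0.92, and the secreted proteins fibronectin (Fn1), apolipoprotein M (Apom) and clusterin (Clu) had changes of -1.22, -1.14 and -1.20. Fn1 was among the best covered, with 4864 and 4256 fragments in total RNA and ratios between 0.255 (0.237 to 0.274) and 0.594 (0.561 to 0.628). Apart from Os9, these loci were chosen after their values were seen, and they are not read as a group. In the lists used here, 23 folding and translocation genes of the endoplasmic reticulum and 34 secreted hepatocyte proteins were compared. None of either was 2-fold lower, against 4.34% of all loci, a share too small for so few members to decide. All 4 fraction libraries lay below both total RNA libraries at 2 (8.70%) and 3 (8.82%) of them, against 7.62% of all loci.

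The other loci named by rule as lowest were of mixed function. Taok3, a protein kinase, was at 18.1 and 21.4 FPKM in total RNA and between 4.29 and 10.8 FPKM in the fractions, and Ifitm3, an interferon-induced membrane protein, was at 82.4 and 86.2 FPKM against 18 to 48.4 FPKM. Nudc (-1.52), which takes part in dynein-based transport, and Bag3 (-1.40), a partner of heat shock protein 70, likewise had all 4 intervals below 1. Also named were Mgp (-1.85), an extracellular matrix protein, Lrrc2 (-1.64), the membrane skeleton protein Sptbn1 (-1.69), Flot1 (-1.77) and Prr3 (-1.46). Their place below both total RNA libraries in every fraction was required by the rule. The growth factor gene Vegfa was listed at 3722 and 1961 FPKM in total RNA and at 826, 1172, 177 and 1259 FPKM in the fractions. Its total RNA libraries differed from each other by more than the WD heavy library differed from WD total RNA, and no whole fragment numbers were found behind its values.

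**Figure D2:**
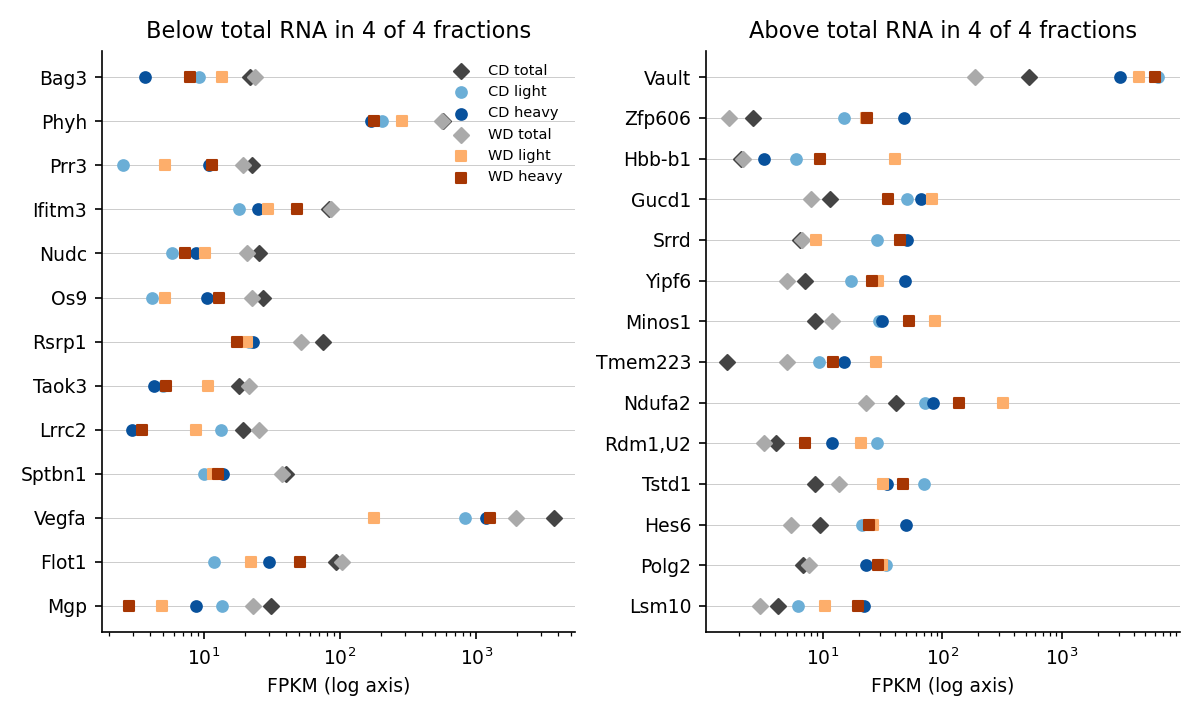
Level of the named loci in each of the 6 libraries (FPKM, log axis), with the loci below total RNA in all 4 fractions on the left and those above it on the right; snoU83B, SNORD66 and Coa6 are left out because they are listed at 0 in a library. Grey diamonds are total RNA, light circles and squares the light fractions and dark ones the heavy fractions. Both diamonds lie on 1 side of the 4 fractions in every row shown, as the rule that chose these loci required.

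Nuclear-encoded subunits of oxidative phosphorylation, which are made in the cytosol and imported into mitochondria, were higher in the fractions. Of 62 compared, 18 were at least 2-fold higher (29.0%, against 9.34% of all loci) and 2 lower, with a median change of 0.50 (CD 0.38, WD 0.74) against 0.11 over all loci. The median was positive in both fractions (light 0.40, heavy 0.68), and it was 0.58 without the WD light library. Both fractions lay above total RNA in each diet at 22 of the 62 (35.5%, against 10.7% of all loci). All 4 fraction libraries lay above both total RNA libraries at 17 (27.4%, against 7.45% of all loci). Of the 58 with fragment numbers, 8 had all 4 intervals above 1, against 0.696% of all loci with such numbers. Intervals are narrower at loci with more fragments, and these shares were not matched for fragment number. Among the lists of at least 15 members, oxidative phosphorylation had the largest share of loci above total RNA in every fraction of each diet.

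Complex III subunit Uqcrh was at 98.7 and 122 FPKM in total RNA, at 259 and 232 FPKM in the light fractions and at 489 and 442 FPKM in the heavy fractions. The order from total RNA to light to heavy was the same in each diet, with ratios between 1.90 (1.35 to 2.72) and 4.96 (3.43 to 7.30). Ndufb8 of complex I showed the same order, at 31.3 and 29.0 FPKM in total RNA, 88.9 and 85.3 FPKM in the light and 147 and 115 FPKM in the heavy fractions. Cytochrome c oxidase subunits followed, with changes of 1.34 for Cox6a1, 1.09 for Cox7c and 0.90 for Cox4i1. Ndufs8 (1.48), Uqcrq (1.23) and the ATP synthase subunit Atp5l (0.84) were the other members with all 4 intervals above 1.

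Atp5e, the most abundant member, did not follow this pattern, since it was at 905 and 936 FPKM in total RNA, at 3179 and 3476 FPKM in the light fractions and at 1059 and 671 FPKM in the heavy fractions. Only its light fraction was higher in both diets. Ndufb10 (-1.50) and Atp5g2 (-1.14) went the other way. Atp5g2 was at 263 and 187 FPKM in total RNA and at 194, 62.8, 67.3 and 83.9 FPKM in the fractions, with the CD light value above that of WD total RNA. Ndufs5, the highest member at 3.73, rested on the WD light library (129 FPKM) and was between 0 and 8.60 FPKM in the other libraries.

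Ndufa2 of complex I, named by rule, was at 41.5 and 22.9 FPKM in total RNA and at 71.3, 84.3, 322 and 138 FPKM in the fractions. Minos1, also named by rule and part of the complex that shapes the mitochondrial inner membrane, was at 8.64 and 12 FPKM in total RNA. It was at 29.5, 31.7, 87.2 and 53.0 FPKM in the fractions, from 3 and 4 fragments against 7, 7, 45 and 12. Both CD intervals of Minos1 included 1. Polg2, the accessory subunit of the mitochondrial DNA polymerase, was at 6.80 and 7.66 FPKM in total RNA and at 33.7, 23.0, 31.7 and 28.9 FPKM in the fractions, a change of 2.00 with ratios between 3.38 (1.70 to 7.12) and 4.95 (2.62 to 10.0). The pyruvate carrier subunit Mpc1 (1.95), the cytochrome c oxidase assembly factor Coa3 (1.91), the deacetylase Sirt3 (1.87), Mcat (1.51) and the electron transfer subunit Etfa (1.23) had all 4 intervals above 1 and were chosen after their values were seen. Coa6, a second assembly factor, was listed at 0 in WD total RNA and rested on 1 to 3 fragments elsewhere.

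Subunits of the mitochondrial ribosome were less uniform. Of 69 compared, 11 were at least 2-fold higher (15.9%, against 9.34% of all loci) and 1 lower, with a median of 0.46 overall but 0.03 in the CD and 0.35 in the WD, and 0.18 without the WD light library. All 4 fraction libraries lay above both total RNA libraries at 8 members (11.6%, against 7.45% of all loci) and below both at 6 (8.70%, against 7.62%). Of the more abundant members, Mrpl20 was at 45.5 and 63.9 FPKM in total RNA and 124, 66.5, 135 and 98.6 FPKM in the fractions, and Mrps7 was at 48.4 and 54.0 FPKM against 119, 65.6, 77.6 and 89.3 FPKM.

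Of 23 folding and translocation genes of the endoplasmic reticulum, 2 were at least 2-fold higher (8.70%, against 9.34% of all loci) and none lower, with a median of 0.19 that turned negative in the light (-0.12) and in the heavy fraction (-0.09) alone and with a mean of log2 values. Sdf2l1, a chaperone partner and the highest member, was at 21.3 and 26.5 FPKM in total RNA and at 40.0, 62.1, 51.1 and 82.4 FPKM in the fractions, with all 4 intervals above 1. Sec61b, of the translocation channel, was at 29.1 and 25.4 FPKM in total RNA and between 42.4 and 64.8 FPKM in the fractions. Dpm3 (1.94), of the enzyme that makes dolichol phosphate mannose, Ostc (1.71), of the oligosaccharyltransferase, and Emc6 (1.61), of a membrane insertion complex, had all 4 intervals above 1 and were chosen after their values were seen. The abundant chaperone Calr was at 561 and 623 FPKM in total RNA and at 537, 384, 624 and 385 FPKM in the fractions.

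Enzymes and regulators among the well covered higher loci, again chosen after their values were seen, included Fads2 (1.59), the desaturase that starts long-chain polyunsaturated fatty acid synthesis, and Cdo1 (1.07), which oxidizes cysteine. Atf4, a stress transcription factor translated through upstream open reading frames, was at 31.1 and 35.5 FPKM in total RNA, at 117 and 89.5 FPKM in the light fractions and at 56.8 and 55.5 FPKM in the heavy fractions. Cebpa, a hepatocyte transcription factor, was the smallest such change at 0.34, with 90.5 and 96.9 FPKM in total RNA and between 111 and 129 FPKM in the fractions.

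The remaining loci named by rule as highest were Zfp606, a zinc finger gene at 2.62 and 1.65 FPKM in total RNA and 15.1, 48.3, 23.2 and 23.6 FPKM in the fractions (3.63), and Gucd1 (2.57), Srrd (2.31), Yipf6 (2.30), Tmem223 (2.26), Tstd1 (2.02), Hes6 (2.02) and Lsm10 (1.99). Each of these 8 was at 13.7 FPKM or less in both total RNA libraries. The locus merging Rdm1 with a U2 small nuclear RNA (2.2) cannot be divided between its genes. Hbb-b1, a beta globin, was at 2.06 and 2.16 FPKM in total RNA and at 6.04, 3.24, 40.1 and 9.50 FPKM in the fractions, with the WD light value the highest.

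For several gene groups the mean of both fractions hid opposite positions of the light and the heavy fraction. Plasma proteins secreted by hepatocytes are translated on large polysomes at the endoplasmic reticulum. Of 34 compared, none was 2-fold lower or higher and the median change was -0.11, which turned to 0.06 without the WD light library, but the medians were -0.75 in the light and 0.31 in the heavy fraction, and 22 of 34 (64.7%, against 11.6% of all loci) had the light fraction below and the heavy fraction above total RNA in each diet. Albumin (Alb) was at 47108 and 43677 FPKM in total RNA, at 25611 and 24966 FPKM in the light and at 88634 and 97448 FPKM in the heavy fractions. Prothrombin (F2) had the highest change of the list, 0.88, at 297 and 342 FPKM in total RNA, 265 and 260 FPKM in the light and 967 and 851 FPKM in the heavy fractions.

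Of 31 proteasome subunits, 6 were at least 2-fold higher (19.4%, against 9.34% of all loci) and none lower, with a median of 0.43. The light fraction lay below and the heavy fraction above total RNA in each diet at 12 of them (38.7%, against 11.6% of all loci), and both fractions lay above it at 7 (22.6%, against 10.7%). Psmb3 was at 39.3 and 38.2 FPKM in total RNA, 32.9 and 28.3 FPKM in the light and 201 and 177 FPKM in the heavy fractions, and Psma5 was at 71.4 and 78.1 FPKM, 57.0 and 66.3 FPKM, and 262 and 284 FPKM. For both, the light fractions were near total RNA and the heavy fractions far above it.

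Of 28 urea cycle and amino acid genes, 4 were at least 2-fold higher (14.3%, against 9.34% of all loci) and none lower (median 0.36; light -0.48, heavy 0.72), and 12 (42.9%, against 11.6%) had the light fraction below and the heavy fraction above total RNA in each diet. Otc, which makes citrulline, was at 198 and 200 FPKM in total RNA, 124 and 107 FPKM in the light and 747 and 661 FPKM in the heavy fractions. Among 15 heat shock chaperones, 8 had this order (53.3%, against 11.6% of all loci; median 0.18; light -0.49, heavy 0.76), and Hsph1 was at 39.1 and 30.4 FPKM in total RNA, 20.9 and 21.6 FPKM in the light and 85.5 and 59.9 FPKM in the heavy fractions.

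Cytosolic ribosomal proteins, the best known TOP mRNAs, lay the other way. Of 79 listed, 70 were found, and 9 of these were at 0 in every library. The symbol of the most abundant, Rps29, occurs on 4 loci. Of 60 compared, 16 were at least 2-fold higher (26.7%, against 9.34% of all loci) and 1 lower (1.67%, against 4.34%). The median was 1.00 (CD 0.28, WD 1.45), and 0.60 over the 44 above 0 in every library. The median was 0.16 without the WD light library, against 0.05 over all loci. Then 5 of the 60 were higher and 4 lower, against 951 and 734 of all 10201 loci. These shares were near those of all loci. The medians over total RNA of the same diet were 0.46 in CD light, -0.28 in CD heavy, 2.08 in WD light and 0.00 in WD heavy. The light fraction lay above and the heavy fraction below total RNA in each diet at 17 of 60 (28.3%, against 10.6% of all loci), and the reverse was seen at none. Translation factors with TOP mRNAs had medians of 0.55 in the light and -0.40 in the heavy fraction over 15 members, with 7 light above and heavy below total RNA (46.7%), and their median over both fractions of 0.18 turned negative on rescaling and without the WD light library.

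Rps29 was at 1604 and 1540 FPKM in total RNA, 5328 and 2550 FPKM in the light and 810 and 992 FPKM in the heavy fractions, and Rpl41 was at 1281 and 1272 FPKM, 3193 and 2650 FPKM, and 950 and 983 FPKM. For both, every light value was above and every heavy value below total RNA. Rps14, Rpl4 and Rps15 were the members with all 4 intervals above 1. Rps14 was at 192 and 187 FPKM in total RNA, 507 and 927 FPKM in the light and 383 and 311 FPKM in the heavy fractions. Rps19, with the highest change of the list at 8.30, was listed at 0 in 4 libraries, at 4.22 FPKM in CD heavy and at 121 FPKM in WD light.

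To show the tract itself, the first bases of 4 of these genes are given with 5 bases before the annotated start, from RefSeq on GRCr8, 5′ to 3′ on the gene's strand, with the pyrimidine tract at the start in capitals.
Rpl39 (minus strand, chrX:121195877-121195901): gcgttCTTCCggcctgtcctttctc
Rps15 (minus strand, chr7:10068096-10068120): gcttcCTTTTCCCagcagccgccaa
Rplp0 (minus strand, chr12:46718371-46718395): cacttCTCTCgccaggcgtcctcat
Rps14 (plus strand, chr18:56498255-56498279): tctctCTTTCCggtggaggagtctg

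A tract was searched as a C at the annotated start followed by 4 bases that are each C or T, on the gene's strand only. It was found at 18 of 45 matched ribosomal protein genes (40%) and at 2.63% of 33469 RefSeq promoters. The median change was 1.12 over the 18 ribosomal protein loci with the tract, of which 6 were at least 2-fold higher, and 1.28 over the 27 without it, of which 8 were. In the CD these medians were 0.56 and 0, in the WD 1.51 and 1.94, and without the WD light library 0.16 and 0.11, so that their order differed between diets. Over 180 other genes with the tract the median was 0.03. An annotated start need not be the one used in liver.

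**Figure D3:**
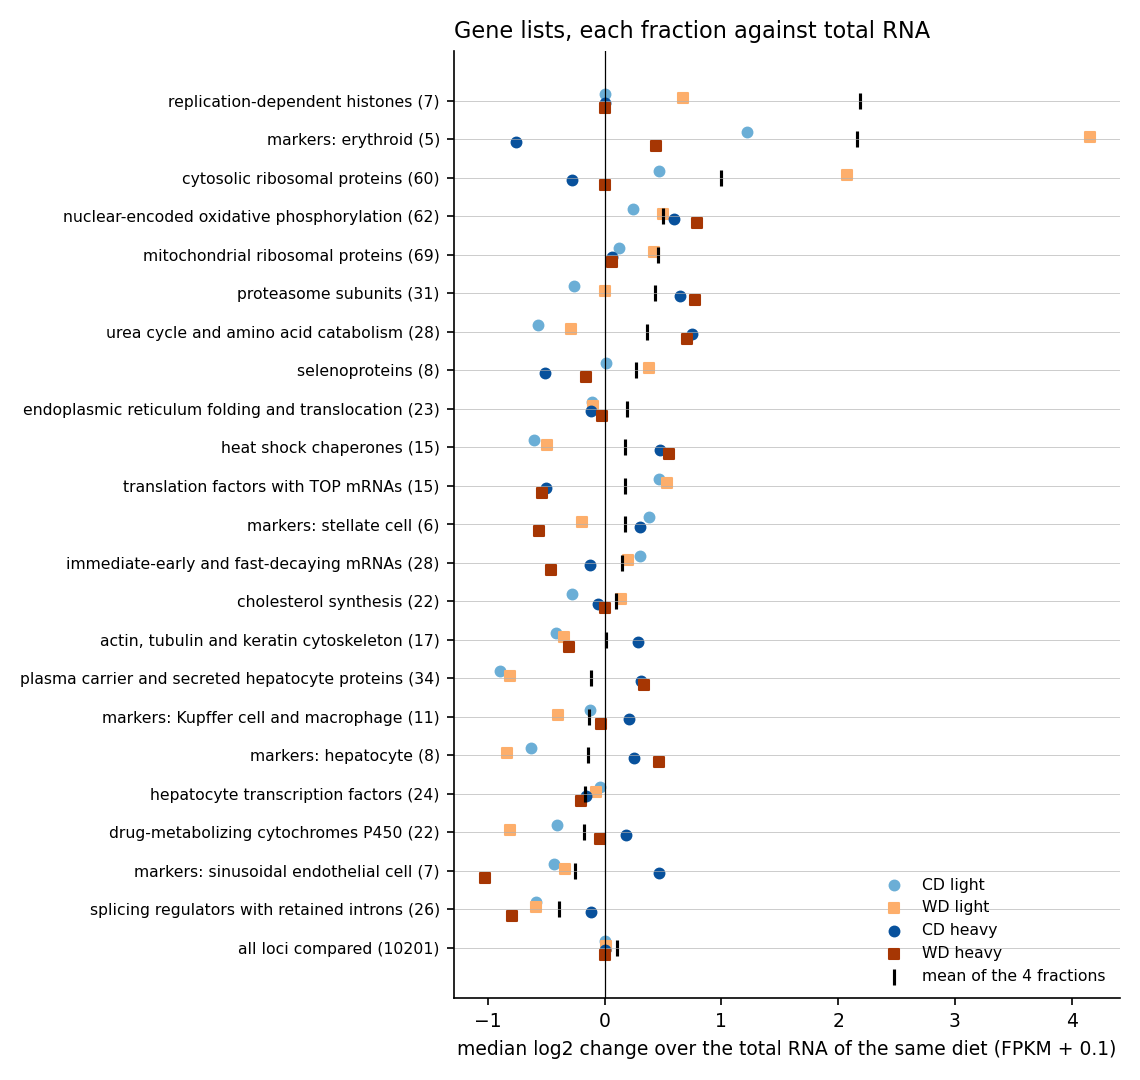
Median log2 change of each fraction library over the total RNA of its diet for gene lists of at least 5 compared members, with 0.1 FPKM added and the number of members in parentheses; circles are CD, squares WD, pale symbols light and dark symbols heavy fractions, and the black bar is the change of the mean of all 4 fractions. Secreted proteins, urea cycle genes and heat shock chaperones have both light medians below and both heavy medians above 0, and oxidative phosphorylation genes have all 4 above 0.

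Cytochromes P450 that handle drugs and steroids differed among themselves. Of 22 compared, 2 were at least 2-fold higher (9.09%, against 9.34% of all loci) and none lower (against 4.34%), with a median of -0.18. Both fractions lay below total RNA in each diet at 7 (31.8%, against 11.3% of all loci) and above it at 4 (18.2%, against 10.7%). Of the 18 with fragment numbers, 5 had all 4 intervals below 1 and 2 above. Over all loci with such numbers the shares were 0.657% and 0.696%, not matched for fragment number. Cyp4f1 was at 192 and 201 FPKM in total RNA and at 94.7, 99.0, 119 and 105 FPKM in the fractions, which lay close together at about the same distance below total RNA. Cyp2d2 (-0.90) was similar, at 474 and 495 FPKM against 290, 256, 202 and 289 FPKM. Cyp2c11, the male-specific form, was at 535 and 475 FPKM in total RNA and at 756, 1191, 568 and 1007 FPKM in the fractions. Cyp4a2, a fatty acid hydroxylase, was higher in the heavy fractions only, at 1072 and 913 FPKM in total RNA, 1177 and 819 FPKM in the light and 5186 and 3980 FPKM in the heavy fractions. Many of these genes have near-identical copies, so the division of reads between them is uncertain.

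Other lists stood near the median of all loci. Over all loci, 4.34% were at least 2-fold lower and 9.34% higher. Hepatocyte transcription factors (24 compared) had a median of -0.17 with 1 lower and 1 higher (4.17% each). Cholesterol synthesis genes (22) had one of 0.10 with none lower and 2 higher (9.09%). Cytoskeletal genes (17) had one of 0.01 with 2 lower (11.8%) and 1 higher (5.88%). The medians of cholesterol synthesis and cytoskeletal genes turned negative on rescaling and on centring, and that of cytoskeletal genes also with a mean of log2 values and without the WD light library. Immediate-early and fast-decaying mRNAs (28) had a median of 0.15 that turned negative on rescaling and with a mean of log2 values. Of them, 3 were lower and 3 higher (10.7% each). The lower ones were the transcription factors Egr1 (-1.58), Klf2 (-1.44) and Nr4a1 (-1.25), each at 6.14 FPKM or less. For 3 liver mRNAs described as held in the nucleus the median was -0.09 and none was past 2-fold, and for 8 selenoproteins it was 0.27. None of the listed long noncoding RNAs was among the compared loci.

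Replication-dependent histone mRNAs (7 compared) had a median of 2.18, which was 0 without the WD light library and 0.08 over the 3 listed above 0 in every library. Hist1h4b, the most abundant, was at 44.9 and 51.7 FPKM in total RNA, 72.3 and 87.6 FPKM in the light and 388 and 331 FPKM in the heavy fractions. Its symbol occurs on 6 loci, and histone genes are near-identical, so this locus cannot be set apart from its copies. Hist1h1d was at 34.3 and 53.8 FPKM in total RNA and between 29.96 and 65.4 FPKM in the fractions.

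Noncoding RNAs of small particles lay on either side of total RNA. The vault RNA (symbol Vault), a short component of the vault particle, had the highest change of the 15 highest loci named by rule, 3.79, at a locus of 144 bases. It was at 537 and 187 FPKM in total RNA and at 6411, 3091, 4453 and 6036 FPKM in the fractions, from 6 and 2 fragments against 49, 22, 74 and 44. The ratios were 11.9 (5.11 to 34.1) and 5.76 (2.27 to 17.4) in the CD and 23.8 (6.36 to 200.3) and 32.3 (8.42 to 275) in the WD. Every fraction was above total RNA, as the rule required, and the size of the difference was poorly determined.

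RNase MRP RNA, which takes part in ribosomal RNA processing, was at 16427 and 20879 FPKM in total RNA and at 14906 and 22042 FPKM in the heavy fractions, whereas the light fractions held 95172 and 157738 FPKM. Loci of 7SK RNA, which restrains transcription elongation in the nucleus, summed to 6000 and 4949 FPKM in total RNA, 14807 and 57119 FPKM in the light and 46.0 and 49.8 FPKM in the heavy fractions. The WD light sum rested on 1 locus at 49134 FPKM. Loci of signal recognition particle RNA summed to 2402 and 1907 FPKM in total RNA, 6610 and 5625 FPKM in the light and 1249 and 2139 FPKM in the heavy fractions. These sums leave out loci merged with other symbols, of which AC135454.1,Metazoa_SRP was at 65400 FPKM in the WD light library and between 0 and 88.3 FPKM in the others.

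Summed over 31 H/ACA loci, nucleolar RNAs were at 18184 and 11897 FPKM in total RNA, 1583 and 1772 FPKM in the light and 7508 and 11778 FPKM in the heavy fractions. Over 25 box C/D loci the sums were 16529 and 6357 FPKM, 1916 and 2730 FPKM, and 3821 and 6164 FPKM, and 14 of these loci were above 0 in 1 library only. Of the H/ACA loci, 14 were also above 0 in 1 library only. In both classes the light sums were below total RNA in each diet, and the WD heavy sum was near it, but few loci set these sums. SNORA48 alone held 10629 and 6610 FPKM of the H/ACA sums in total RNA and 6043 FPKM in WD heavy. SNORD66 and SNORD42 held 6976 and 2925 FPKM of the box C/D sum in CD total RNA, from 8 and 2 fragments. Spliceosomal RNAs (27 loci) had no common order, with 3486 and 1633 FPKM in total RNA, 4057 and 7180 FPKM in the light and 1525 and 3221 FPKM in the heavy fractions. Such RNAs are shorter than or close to the fragments of these libraries, their symbols occur on many near-identical loci, and FPKM of short loci is sensitive to the assumed fragment length.

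Transcripts of the mitochondrial chromosome are translated by mitochondrial ribosomes. The 4 loci that hold its protein-coding genes summed to 49505 and 49943 FPKM in total RNA, 76450 and 66837 FPKM in the light and 7018 and 8563 FPKM in the heavy fractions. A further entry, AY172581.19, has the same coordinates as the most abundant of these 4 loci, so the division of reads between them is uncertain. It was at 68220 and 51650 FPKM in total RNA and at 18927, 12936, 5539 and 7216 FPKM in the fractions. These values rested on 58 and 42 fragments in total RNA and on 11, 7, 7 and 4 in the fractions. The change was -2.43, with all 4 intervals below 1.

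**Figure D4:**
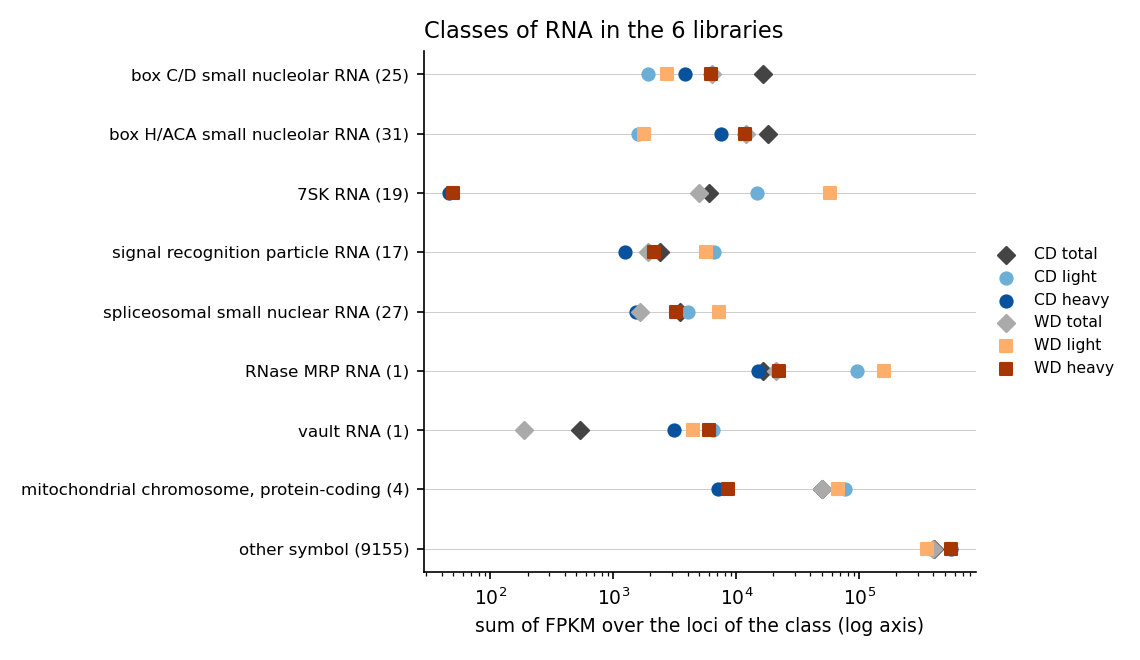
Sum of FPKM (log axis) over the compared loci of each RNA class in each library, with the number of loci in parentheses; diamonds are total RNA, pale symbols light and dark symbols heavy fractions, circles CD and squares WD. Both nucleolar classes have their light fractions below total RNA, the vault RNA has all 4 fractions above it, and 7SK RNA and mitochondrial protein-coding loci have heavy fractions far to the left.

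Width of the locus in the genome, which the comparison did not use, was compared with the change. Among 9155 loci with ordinary symbols, the median change was 1.91 over 34 loci up to 0.5 kb, 0.32 over 263 loci between 0.5 and 2 kb, 0.24 over 766 loci between 2 and 5 kb, 0.26 over 1151 loci between 5 and 10 kb, 0.15 over 2946 loci between 10 and 30 kb and -0.02 over 1204 loci wider than 100 kb. The share of loci at least 2-fold higher was 22.1% between 0.5 and 2 kb and 4.65% above 100 kb, whereas the share at least 2-fold lower was 7.98% and 4.24%. In the light fraction the median fell from band to band (0.34 between 0.5 and 2 kb, -0.12 above 100 kb), while the heavy medians between 0.5 and 100 kb stayed between -0.05 and 0.21 with no such order. The narrowest group had a quartile range of -0.21 to 5.31, and its median was 0 in the CD and 5.22 in the WD. No band was computed without the WD light library. Locus width includes introns and is not the length of the mRNA, and the lists above differ in it, with a median width of 2.97 kb for cytosolic ribosomal proteins, 7.36 kb for oxidative phosphorylation subunits and 17.7 kb for splicing regulators.

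**Figure D5:**
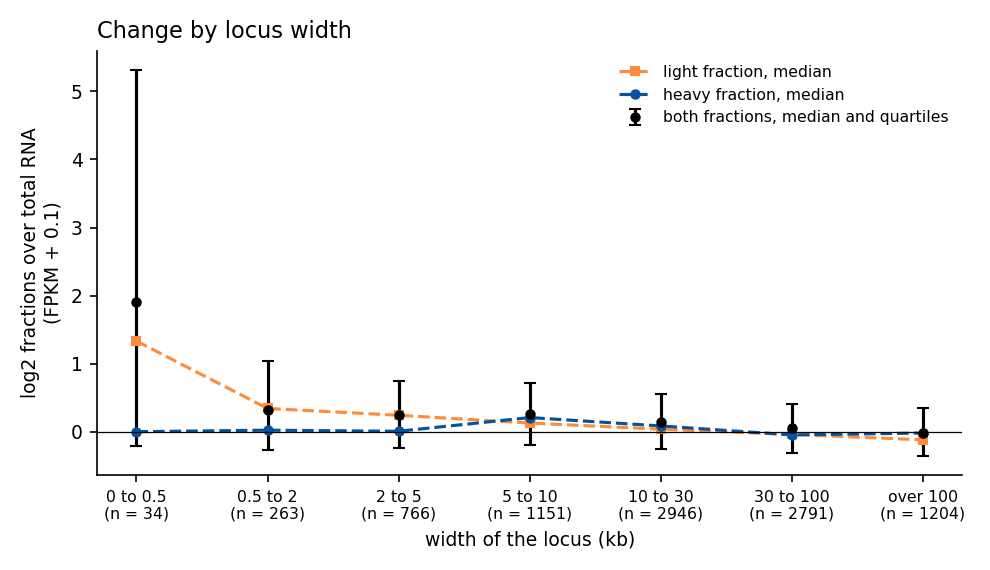
Log2 change of the gradient fractions over total RNA (0.1 FPKM added) by width of the locus for loci with ordinary symbols, with the number of loci under each band; black points are medians of the mean of all fractions with quartiles as bars, and dashed lines join the medians of the light (orange) and heavy (blue) fraction. The median is 1.91 in the narrowest band, between 0.24 and 0.32 up to 10 kb and -0.02 above 100 kb, and that of the light fraction goes from 1.33 to -0.12.

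Markers of cell types were examined because gradients and total RNA were prepared separately. In bulk tissue, fewer cells of a type and less RNA per cell cannot be told apart. All 8 hepatocyte markers were compared, and none was 2-fold lower or higher (median -0.14, which turned to 0.08 without the WD light library; light -0.74, heavy 0.37). The 11 macrophage markers had a median of -0.14 with none past 2-fold, from summed levels of 123 and 159 FPKM in total RNA and 111 to 218 FPKM in the fractions. The 7 sinusoidal endothelial markers had a median of -0.26 with 1 lower (14.3%, against 4.34% of all loci). This was Cdh5, at 8.17 and 8.16 FPKM in total RNA and 1.67 to 3.76 FPKM in the fractions. Their summed levels were 141 and 177 FPKM in total RNA and 107 to 125 FPKM in the fractions, and the median was 0.028 without the CD light library. Their part in the gene results was not tested.

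The 6 stellate cell markers had a median of 0.17 with none past 2-fold, and it turned negative on rescaling. Of cholangiocyte, adipocyte and lymphocyte or granulocyte markers, 1 each reached the compared set, namely Epcam at up to 4.35 FPKM, Fabp4 at 7.36 to 20.1 FPKM and Ptprc at 2.11 to 3.51 FPKM. Erythroid markers (5 compared) had a median of 2.16, or 0.26 without the WD light library. Their summed level was 55.8 and 31.0 FPKM in total RNA, 105 FPKM in CD light and 543 FPKM in WD light, and 31.1 and 26.6 FPKM in the heavy fractions. Hbb was at 13.3 and 0 FPKM in total RNA, 13.9 and 242 FPKM in the light and 3.00 and 5.85 FPKM in the heavy fractions, so that the WD light library alone set it apart. Apoa1, a hepatocyte marker, shares its coordinates exactly with AABR07070085.1, which was listed at 9039 FPKM in CD total RNA against 366 FPKM for Apoa1, so the division of reads between these loci is uncertain.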

How the data were processed

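Total RNA and light and heavy sucrose gradient fractions of rat liver were sequenced after ribosomal RNA removal and random priming. The submitters' processing notes name TopHat, Cufflinks, Cuffnorm and the build Rnor_6.0, and the authors deposited FPKM per locus. The annotation and whether counting used strand were not given in the sources used here. The columns of confidence bounds and status were deposited beside them.

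Values were analysed in Python (3.11.15) using numpy (2.4.6) for arithmetic, pandas (2.3.3) for tables, scipy (1.17.1) for intervals and correlations, and matplotlib (3.10.9) for plots. Loci with a symbol, an estimate that did not fail (1 failed) and 1 FPKM or more on average were compared as log2 of the ratio of means with 0.1 FPKM added. Of these loci, 173 merged several symbols and 277 carried a symbol found on more than 1 locus. Fragment numbers were inferred as whole multiples of 1 step per locus and 1 factor per library, and 299 sets that implied more fragments per FPKM than the locus width or any transcript allows were dropped. With values jittered by 1%, 0.167% of 3000 loci were given numbers. The calculation was tested on simulated data with counting error only. Changes were planted only at loci expected to hold at least 10 fragments in the shallowest library. There, 97 of 100 planted 3-fold changes were called in the right direction, a share that does not cover loci with fewer fragments. Of 7215 loci simulated without a change, 345 (4.78%) were called lower or higher. RefSeq held 8643 of 10093 symbols, 7208 with a promoter.

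Named loci were the 15 lowest and 15 highest changes among loci averaging 10 FPKM or more with a symbol on 1 locus, no clone or placeholder name, and all 4 fractions on one side of both total RNA libraries, and the extremes and 2 most abundant members of each list and RNA class. Members and lists were chosen with earlier results of these data known. Alternatives changed the pseudocount, filter, scaling, averaging, fold, locus width and libraries used.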

Additional observations from a re-analysis of the deposited data

Results flagged for a closer look

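Loci without a symbol took no part in the comparison. There were 864 of them, with a median width of 123.5 bases, and they held between 96.3% and 98.5% of the FPKM sum of each library. All 4 fraction libraries lay above both total RNA libraries at 64 of these 864 loci and below both at 71. The shares were near the 7.45% and 7.62% of the compared loci with a symbol. They are therefore not read as enrichment or depletion.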

How the results depend on the processing

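Each group holds 1 library, so values rest on single pools and low counts limit them. The number of loci with the same direction in each diet was within 1.5 times 6281 except at 10 FPKM or more on average (2802). The 443 lower loci became 259 with a pseudocount of 1 FPKM, 86 at 10 FPKM or more on average, 808 with no filter, 710 after rescaling, 675 after centring, 801 in the light and 1600 in the heavy fraction alone, 954 with a mean of log2 values and 63 at 4-fold. Leaving out 1 library gave 429 to 960 lower loci, with 734 without WD light, and without a total RNA library the count is that of 1 diet, 821 without CD total RNA and 960 without WD total RNA. The 953 higher loci became 363 at 10 FPKM or more on average, 393 when all fractions had to lie on one side and 206 at 4-fold, and leaving out 1 library gave 859 to 1682, the latter without CD total RNA. The correlation between diets was 0.50 at 10 FPKM or more on average and 0.20 with no filter. In the heavy fraction alone the sign turned for cytosolic ribosomal proteins (-0.065), cytochromes P450 (0.14), erythroid markers (-0.58), Atp5e (-0.090), RNase MRP RNA (-0.014) and the locus of AC135454.1 and Metazoa_SRP (-0.44). In the light fraction alone it turned for proteasome subunits (-0.18), urea cycle genes (-0.48), Psmb3 (-0.34), Psma5 (-0.28), AABR07070085.1 (-0.16), Otc (-0.79), Cth (-0.49) and Sdsl (-0.49). Smaller list medians also turned, in the light fraction alone for endoplasmic reticulum genes, heat shock chaperones, the cytoskeleton and stellate markers, and in the heavy fraction alone for translation factors, secreted proteins, endoplasmic reticulum genes, immediate-early and nuclear-retained mRNAs, selenoproteins and hepatocyte, macrophage and lymphocyte markers. Leaving out 1 library moved the endothelial marker median between -0.52 and 0.028 (without CD light) and the adipocyte marker between -0.77 and 0.093 (without WD total RNA). Apart from the settings named, the cause was not tested. Of 3348 values of 213 named loci under the alternatives, 3218 kept their sign, as did 360 of 414 list medians. Bands of protein length were not run. No paired analysis was possible because each group holds 1 library, although the libraries of a diet come from the same rats and each fraction was also set against its own total RNA.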
